A study of Mus musculus with 2 samples.

Results

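Cells with transcripts of Zic1 and Zic4 were examined among the mesenchymal cells that came along with the utricular sensory epithelium of the mouse at embryonic day 14 (E14). A cell was counted as a Zic cell when it had no Epcam transcript, at least 1 Col1a2 transcript, fewer than 3 transcripts of the proliferation genes Mki67 and Top2a, and at least 2 of Zic1 and Zic4 together. Transcripts were counted as unique molecular identifiers (UMIs), each of which marks 1 captured molecule. The rule found 638 cells, which were 13.0% (95% interval 12.1 to 14.0) of the 4913 E14 cells that met every other condition and 5.51% of the 11588 E14 cells kept. The remaining 4275 cells, with 0 or 1 UMI of Zic1 and Zic4, are called comparison cells. Both ages in the series, E14 and postnatal day 2 (P2), came from wild-type mice with no treatment, as 1 droplet-based scRNA-seq library each of epithelium detached with thermolysin. At P2 only 10 of 4081 kept cells met the other conditions, and 2 of them were Zic cells, so all comparisons were made within E14. Tissue was pooled over several embryos per harvest by the study's general statement on collection. The libraries are labelled as sensory epithelium, yet 7289 of the 11588 kept E14 cells (62.9%) had no Epcam UMI, and 5590 of these had Col1a2.

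Zic proteins are zinc finger transcription factors related to the Gli factors of the Hedgehog pathway, and in the mouse Zic1 and Zic4 lie side by side. They are known for their roles in the dorsal neural tube, the cerebellum, the meninges and head mesenchyme. The otic mesenchyme surrounds the inner ear epithelium, gives rise to the otic capsule and to the connective tissue and fibrocytes beneath the sensory organs, and depends on transcription factors such as Pou3f4 and Tbx18.

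Because each age had 1 library, no test between conditions or cell groups was possible, and genes were called by size alone. A level is the sum of UMIs over the cells of a group in counts per 1000000 UMIs (CPM), a ratio is the level in Zic cells over the level in comparison cells, and the ranges in brackets are exact 95% intervals that cover counting error only. The E14 library held 122892080 UMIs in 15636 barcodes and the P2 library 57003553 in 6251, where 20000 cells had been targeted per sample, and 23 barcodes occurred in both, 10 of them among kept cells. The Zic cells had a median of 7964 UMIs (quartiles 6456 and 9922) and the comparison cells 6571 (4300 and 8271). The rule asks for UMIs of 2 low genes and so favours deeper cells, and shares of cells with a UMI are therefore given after each cell was thinned to 4000 UMIs, which left out 52 Zic cells and 985 comparison cells. The median share of mitochondrial UMIs was 2.55% and 2.64%, and haemoglobin transcripts made up 0.781% and 1.46% of UMIs. Zic cells were among the highest doublet scores in 4.55% of cases (3.06 to 6.46) and comparison cells in 6.36%.

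Zic1 and Zic4 occupy neighbouring positions on chromosome 9 in opposite directions, and the stretches before their start sites are shown because the rule rests on these genes and they were found in the same cells. By the RefSeq promoter table (GRCm38.p6), the start sites lie 3204 bases apart and point away from each other. The windows are the 250 bases before each start, chr9:91365769-91366018 on the minus strand for Zic1 and chr9:91368722-91368971 on the plus strand for Zic4. Capitals mark the CCAAT box (CCAAT, or ATTGG on the other strand), the E-box motif CACGTG, which reads the same on both strands, and the GC box (GGGCGG, or CCGCCC on the other strand), and no marked motifs overlap.
Zic1: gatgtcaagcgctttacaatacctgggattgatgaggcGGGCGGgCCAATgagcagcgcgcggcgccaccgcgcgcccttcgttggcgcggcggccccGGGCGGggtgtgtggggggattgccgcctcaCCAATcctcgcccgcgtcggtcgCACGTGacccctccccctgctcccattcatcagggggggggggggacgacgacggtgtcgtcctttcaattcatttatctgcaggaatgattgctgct
Zic4: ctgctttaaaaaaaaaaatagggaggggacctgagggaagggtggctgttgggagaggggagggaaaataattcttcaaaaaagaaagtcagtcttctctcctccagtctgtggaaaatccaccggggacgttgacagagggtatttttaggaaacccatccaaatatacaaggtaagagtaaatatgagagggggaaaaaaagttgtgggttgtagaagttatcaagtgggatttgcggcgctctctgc
The Zic1 window held 2 CCAAT, 1 CACGTG and 2 GGGCGG motifs, a GC content of 66.0%, above that of 84.5% of 32851 promoter windows, and 27 CpG dinucleotides. The Zic4 window held none of the motifs searched, a GC content of 44.4%, above that of 22.1% of windows, and 4 CpG. Over all windows the median was 52.4% GC and 6 CpG, and CCAAT was found in 33.8%, CACGTG in 6.02% and GGGCGG in 32.7% of them on either strand. The other motifs searched were TATAAA (12.4% of windows), GGGTGGTC (0.703%) and CAGCAGG (8.44%), each also sought on the other strand, and neither window had them. In the GENCODE M21 annotation the Zic1 window lies within an intron of Zic4, which runs on the plus strand from 91362413 to 91389348, and 42 of its bases lie in the longest annotated first exon of Zic1. Up to 173 bases of the Zic4 window fall in an exon of another Zic4 transcript. Zic1 (91358058 to 91365810, minus strand) and Zic4 thus share ground at their 5′ sides, the 3′ end of Zic1 lies outside Zic4, and whether the counting used strand is not given in the sources used here, so reads from the overlap cannot be assigned with certainty.

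The values that chose the cells were low in most of them. The 638 Zic cells held 2470 UMIs of the pair, 1675 of Zic1 and 795 of Zic4, with a median of 3 per cell and a highest value of 39. Exactly 2 UMIs were found in 214 cells (33.5%), 3 in 155 and 4 or more in 269, of which 21 had at least 10. Just outside the limit, 405 cells (8.24% of the 4913) had 1 UMI, and 3870 (78.8%) had none. Both genes were found in 391 Zic cells (61.3%), Zic1 alone in 221 (34.6%) and Zic4 alone in 26 (4.08%). By the rule, the level was 299 CPM for Zic1 (285 to 314) and 142 CPM for Zic4 (132 to 152), against 11.1 and 3.25 CPM in comparison cells.

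Detection of Zic1 went with detection of Zic4. Among the 4913 cells at 4000 UMIs, Zic4 was detected in 177 of 558 cells with Zic1 (31.7%, 27.9 to 35.8) and in 117 of 3318 cells without it (3.53%, 2.92 to 4.21). Conversely, Zic1 was detected in 60.2% of cells with Zic4 (54.4 to 65.8) and in 10.6% without. These intervals do not overlap. The cells share 1 library, and the part of the overlapping stretch of the locus in the joint detection was not tested.

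Detection of the pair followed Col1a2 across the E14 library. At 4000 UMIs, a Zic1 or Zic4 UMI was found in 17.4% (16.2 to 18.6) of the Epcam-negative, non-cycling Col1a2 cells and in 14.2% (11.6 to 17.1) of cycling ones, but in 2.39% (1.15 to 4.36) of Epcam-negative cells without Col1a2. Epithelial cells with at least 3 Epcam UMIs and no Col1a2 UMI gave 4 of 2146 (0.186%, 0.0508 to 0.477), at a median depth of 9859 UMIs before thinning. Glial cells, set by at least 3 UMIs of glial markers such as Sox10, gave 1.42% (0.870 to 2.19) at a median of 16935 UMIs, and endothelial cells 4.43% (1.80 to 8.92) at 9313. Immune cells gave 0 of 164, which allows a share of up to 1.83% by a floor of 3 counts and 2.22% by the exact interval, at a median of 8076 UMIs, and at full depth held 3 Zic1 UMIs. The share among Col1a2 cells thus stood above the level in cell classes not known for these genes. Comparison cells, chosen to have at most 1 UMI, still gave 5.38%.

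**Figure D1:**
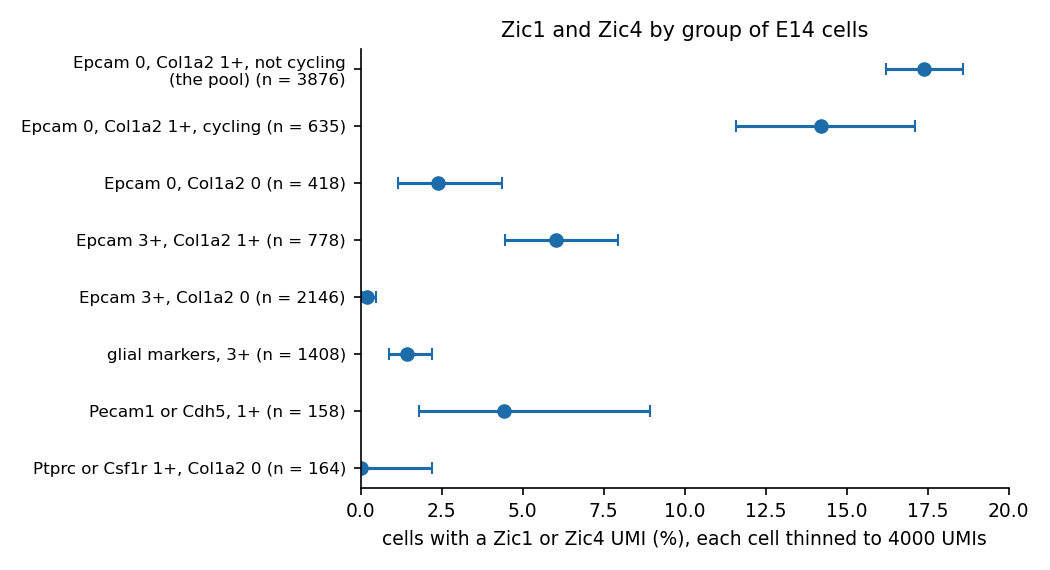
Share of E14 cells with at least 1 Zic1 or Zic4 UMI (x axis, percent) in 8 groups of cells set by marker UMIs (y axis, with the number of cells), after each cell was thinned to 4000 UMIs. Points are shares and bars exact 95% binomial intervals; the 2 groups of Epcam-negative Col1a2 cells, at 17.4% and 14.2%, lie above all others, of which the highest is 6.04%.

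The Zic cells carried Otor, Pou3f4, Tbx18 and Coch, genes of otic mesenchyme, at levels close to those of the comparison cells. By these genes the label of the tissue held, while the pair marked a subset within it. Otor, a secreted protein of the otic capsule and its mesenchyme, stood at 18643 CPM in Zic cells and 15682 CPM in comparison cells. Pou3f4, a transcription factor of otic mesenchyme, stood at 437 and 400.1 CPM. Tbx18, the T-box factor of the otic fibrocyte lineage, stood at 345 and 356 CPM. Coch, which encodes the extracellular protein cochlin, stood at 1348 and 1454 CPM. Summed over the 8 otic mesenchyme markers the level was 23748 and 20683 CPM, most of it from Otor. At least 2 UMIs of them were found in 99.4% and 96.1% of cells. Of 7 markers tested, none was at least 2-fold higher and 1 was at least 2-fold lower, Chst1, given below with its list.

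The 3 further genes proposed to mark these cells did so weakly or not at all. Wif1, a secreted inhibitor of Wnt ligands, reached 138 CPM (128 to 148) in Zic cells and 104 CPM in comparison cells, a ratio of 1.32 (1.22 to 1.43). Trf, the iron carrier transferrin, reached 52.5 and 46.1 CPM, a ratio of 1.14 (1.0 to 1.29). Tbx15, a T-box factor of skeletal mesenchyme, was low in both, with 34 UMIs or 6.08 CPM in Zic cells and 8.83 CPM in comparison cells, a ratio of 0.688 (0.466 to 0.987). None of the 3 reached a 2-fold difference, and among 10670 genes ordered from the highest ratio down Wif1 came at 271, Trf at 1199 and Tbx15 at 9846. At 4000 UMIs Wif1 was found in 37.9% of Zic cells and 27.1% of comparison cells, and Tbx15 in 3.24% and 3.53%. The cells are therefore named here by Zic1 and Zic4 alone.

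Against the comparison cells, genes lower in Zic cells outnumbered those higher. Of 10670 genes with at least 20 UMIs expected in the Zic cells, and without the 6 genes of the rule, 28 (0.262%) were at least 2-fold higher and 238 (2.23%) at least 2-fold lower, with 1 CPM added to each level. The median log2 ratio over all of them was -0.04. The same contrast chose the cells, so these counts describe them and support nothing further.

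**Figure D2:**
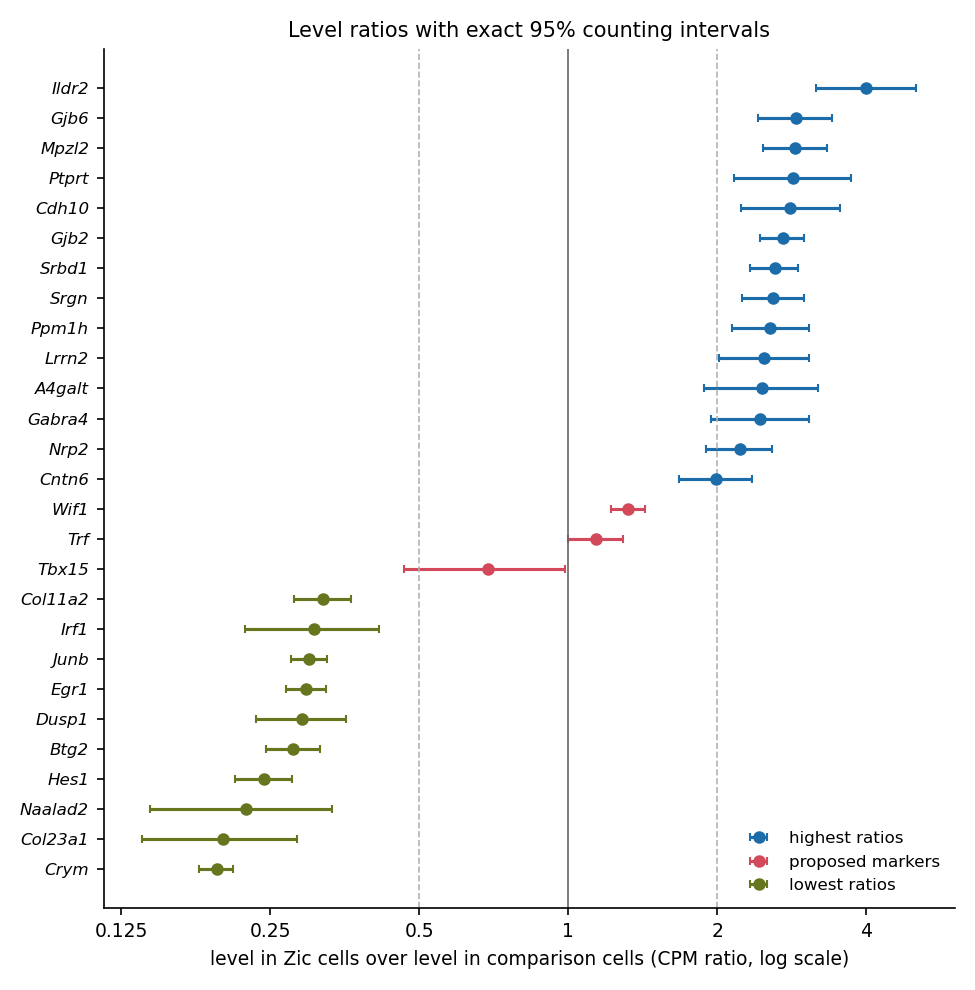
Ratio of the level in Zic cells to that in comparison cells (x axis, CPM ratio, log scale) for 14 of the 15 genes with the highest and the 10 with the lowest ratio by the naming rule and for Wif1, Trf and Tbx15. Points are ratios with exact 95% counting intervals and dashed lines mark 2-fold; ratios run from 4.0 for Ildr2 to 0.195 for Crym, with the proposed markers Wif1, Trf and Tbx15 between 1.32 and 0.688.

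Both otic connexins were among the genes higher in Zic cells, whereas Zic2 and Zic5, further genes of the Zic family, were not. Zic2 stood at 162 CPM in Zic cells and 141 CPM in comparison cells and Zic5 at 58.6 and 51.6 CPM, with ratios of 1.15 and 1.13, so that both were spread over the 2 groups alike.

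Gjb2 and Gjb6 encode connexin 26 and connexin 30, which form the gap junctions through which inner ear fibrocytes and supporting cells exchange ions, and mutations of either cause deafness. Gjb2 stood at 103 CPM (94.3 to 111) in Zic cells and 37.9 CPM in comparison cells, a ratio of 2.71 (2.44 to 3.00). Gjb6 stood at 38.2 CPM (33.3 to 43.7) and 13.3 CPM, a ratio of 2.88 (2.42 to 3.41). These genes are neighbours on chromosome 14, both on the minus strand, with RefSeq start sites 28909 bases apart, and the windows of 250 bases before them, chr14:57104703-57104952 and chr14:57133612-57133861 (GRCm38.p6), are shown because the pair was higher together.
Gjb2: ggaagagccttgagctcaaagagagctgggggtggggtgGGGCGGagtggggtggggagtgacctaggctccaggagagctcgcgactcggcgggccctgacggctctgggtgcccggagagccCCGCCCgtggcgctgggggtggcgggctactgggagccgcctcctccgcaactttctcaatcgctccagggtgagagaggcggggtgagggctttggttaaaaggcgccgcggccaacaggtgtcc
Gjb6: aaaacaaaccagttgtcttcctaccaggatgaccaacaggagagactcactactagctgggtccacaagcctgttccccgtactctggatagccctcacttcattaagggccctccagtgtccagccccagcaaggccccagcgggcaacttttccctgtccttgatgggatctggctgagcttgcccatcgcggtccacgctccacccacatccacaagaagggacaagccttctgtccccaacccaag
With capitals as above, the Gjb2 window held 2 GGGCGG motifs, 69.2% GC and 18 CpG, while the Gjb6 window held none of the motifs, 56.8% GC and 5 CpG. Neither overlaps an annotated gene in GENCODE M21. Of 15 tested genes of fibrocyte ion transport, Gjb2 and Gjb6 were at least 2-fold higher and Kcnk2, a potassium channel, at least 2-fold lower at 5.36 against 30.4 CPM, and the median log2 ratio of the list was 0.07. Over all genes tested, 0.262% were at least 2-fold higher and 2.23% at least 2-fold lower. With comparison cells weighted to the clusters of the Zic cells, as described below, Kcnk2 stood at 5.00 against 5.83 CPM. Gja1, a further connexin, had 50.0 and 28.9 CPM and the water channel Aqp1 162 and 155 CPM.

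The other named genes with high ratios ranged from receptors to enzymes, and 8 of the 15 highest were below 2-fold when compared within clusters. Ildr2, an immunoglobulin-like domain receptor, gave the highest ratio of the named genes, 4.0 (3.17 to 5.04), from 24.3 CPM in Zic cells and 6.08 CPM in comparison cells. Mpzl2, an immunoglobulin-like adhesion protein whose loss causes deafness, stood at 50.4 and 17.6 CPM. Cdh10, a cadherin, stood at 21.3 and 7.56 CPM, and Nrp2, a receptor for semaphorins and vascular growth factors, at 42.9 and 19.4 CPM. Others were Ptprt, a receptor tyrosine phosphatase, at 15.4 and 5.40 CPM, Lrrn2, a leucine-rich repeat protein, at 24.5 and 9.82 CPM, and Gabra4, a GABA receptor subunit, at 20.5 and 8.41 CPM. Further named genes were Srbd1 (85.8 and 32.9 CPM), the proteoglycan core protein Srgn (51.1 and 19.7 CPM), the phosphatase Ppm1h (33.6 and 13.1 CPM) and the glycosyltransferase A4galt (15.5 and 6.32 CPM), and the contactin Cntn6 (34.5 and 17.3 CPM) fell just short of 2-fold at 1.99. Cntn6 was the only one of the 15 highest named genes below 2-fold.

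Crym, which encodes the thyroid hormone binding protein mu-crystallin, had the lowest ratio among genes found in at least 10% of comparison cells, the limit of the naming rule, while some less widely detected genes given with their lists lay lower. It stood at 121 CPM (112 to 130.2) in Zic cells and 620.3 CPM in comparison cells, a ratio of 0.195 (0.180 to 0.210), and at 4000 UMIs was found in 18.3% and 51.9% of cells. Among the collagens of the lower group were Col23a1, a transmembrane collagen, at 6.08 and 30.2 CPM, and Col11a2, of cartilage fibrils, at 43.8 and 137 CPM. Hes1, a target of Notch signalling, stood at 42.2 and 174 CPM, and the peptidase gene Naalad2 at 4.47 CPM in Zic cells, with a ratio of 0.223. The other 5 of the 10 lowest named genes were Btg2, Egr1, Junb, Dusp1 and Irf1, with ratios of 0.278 to 0.307, all of them genes induced quickly by stimuli.

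**Figure D3:**
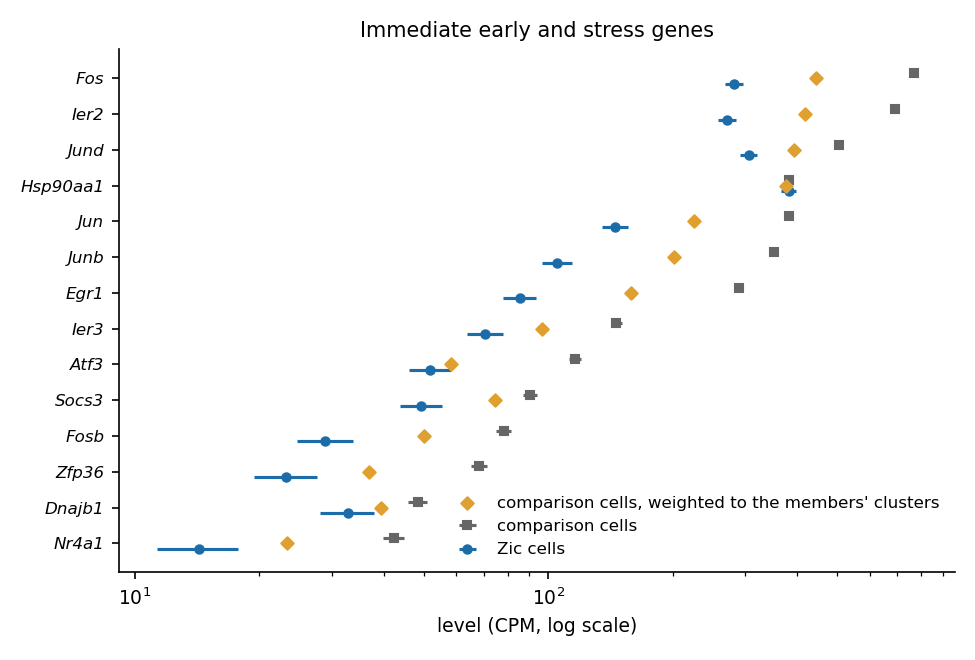
Levels of the 14 tested immediate early and stress genes (y axis) in CPM (x axis, log scale) in Zic cells (circles, exact 95% counting intervals), comparison cells (squares, same intervals) and comparison cells weighted to the clusters of the Zic cells (diamonds, no interval). For Fos the values are 282, 769 and 445 CPM, and Hsp90aa1 shows no such gap. Diamonds cover only the clusters with at least 20 Zic cells, whose Zic cells had 255 CPM of Fos, while circles cover all Zic cells.

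Immediate early genes, which cells induce within minutes of a stimulus and also during enzymatic dissociation, were lower as a group. Of 14 tested genes of a dissociation stress list, 10 were at least 2-fold lower, against 2.23% of all genes tested. None was at least 2-fold higher, against 0.262%, and the median log2 ratio was -1.37. Fos stood at 282 CPM in Zic cells and 769 CPM in comparison cells, Jun at 145 and 382 CPM, and Ier2 at 271 and 692 CPM. The exceptions were Jund, Dnajb1, Socs3 and the heat shock protein Hsp90aa1, the last with 382 and 383 CPM. Over the whole list the level was 1851 and 3966 CPM. The difference was smaller among cells of like expression. When the 4913 cells were clustered, then in the clusters with at least 20 Zic cells Fos stood at 255 CPM in Zic cells and 445 CPM in comparison cells weighted to them, Jun at 125 and 225 CPM and Junb at 96.5 and 202 CPM, and the median log2 ratio of the list was -0.71. The part of dissociation in this difference was not tested.

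The summed levels of the markers of other cell classes were lower in Zic cells or close to those of comparison cells, while the share of cells with at least 2 such UMIs was higher in Zic cells for some classes. The 4 melanocyte markers summed to 1.07 CPM in Zic cells and 106 CPM in comparison cells, with Mlana at 0. The 6 immune markers summed to 39.0 and 120.1 CPM, with Ptprc at 0, and the 5 endothelial markers to 50.4 and 96.7 CPM. The 6 glial markers summed to 437 and 854 CPM, nearly all from Fabp7 (428 and 760.5 CPM), while Sox10, the defining factor, stood at 1.25 and 15.8 CPM. The 7 epithelial markers summed to 84.2 and 106 CPM with Epcam at 0 by the rule, the 6 neuronal markers to 13.4 and 13.6 CPM, the 5 pericyte markers to 21.3 and 37.1 CPM, the 5 osteoblast markers to 7.86 and 7.17 CPM with Ibsp and Bglap at 0, and the 5 muscle markers to 0.357 and 2.90 CPM with Myod1, Myog, Acta1 and Pax7 at 0. Haemoglobin and the other red blood cell markers summed to 7815 and 14356 CPM. The 5 chondrocyte markers summed to 1290 and 1846 CPM. Shares of cells with at least 2 marker UMIs, taken without thinning, were 62.1% and 50.6% for glial, 91.1% and 79.4% for chondrocyte, 16.5% and 15.0% for epithelial and 1.25% and 0.398% for osteoblast markers, and Cdh1 of the epithelial markers was higher in Zic cells. By summed level the comparison cells held more RNA of melanocytes, immune cells, glia and red blood cells, and the part of this in the genes lower in Zic cells was not tested for each gene.

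Signalling genes showed differences in few members, to be set beside 0.262% higher and 2.23% lower over all genes tested. Of 18 tested Wnt receptors and R-spondins none passed 2-fold, although Rspo3, which enhances Wnt signalling, had 8.04 and 3.92 CPM. Among 4 tested Wnt ligands Wnt2 was higher at 9.11 and 3.53 CPM, and Wnt5a had 165 and 177 CPM. Among 7 secreted Wnt inhibitors, Wif1 included, Dkk2 was higher at 10.0 and 3.43 CPM and Sostdc1 lower at 4.65 and 41.4 CPM. Of 9 tested Wnt targets only Nkd2 passed 2-fold, at 4.65 and 12.4 CPM, while Axin2, a general target, had 57.5 and 58.7 CPM and Lef1 82.7 and 77.7 CPM. Of 10 tested Hedgehog genes, the pathway of the related Gli factors, only the ligand Dhh passed 2-fold, at 0.893 and 5.12 CPM, and the target Ptch1 had 6.97 and 8.90 CPM. The lists of BMP and TGF-beta ligands (10 tested), BMP antagonists (5) and FGF genes (10) held no gene past 2-fold in either direction, and among 8 BMP targets Id4 was lower at 2.14 and 5.76 CPM. Retinoic acid genes differed in 1 of 10, the synthesis enzyme Aldh1a2 at 1.25 and 9.33 CPM, and the IGF system in 1 of 10, Igf1 at 11.4 and 36.0 CPM. Across these pathways 1 gene or none differed in each direction of a list, and the median log2 ratios of the lists lay between -0.28 and 0.23. Most gaps were narrower among cells of the same clusters, weighted as for Fos. Values were 9.62 and 6.09 CPM for Wnt2, 0.769 and 1.55 for Sostdc1, 3.65 and 6.42 for Nkd2 and 1.54 and 2.39 for Id4. Aldh1a2 stood at 1.35 and 1.55 CPM, Igf1 at 10.2 and 21.1 CPM and Dkk2 at 10.4 and 4.16 CPM. Dhh was near the floor, at 0 and 0.0493 CPM.

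Of 23 tested transcription factors of otic mesenchyme, 4 were at least 2-fold lower, against 2.23% of all genes, and none was higher, against 0.262%, with a median log2 ratio of 0.05. The 4 were Osr1 (5.72 and 30.8 CPM), Nr2f1 (33.8 and 73.1 CPM), Ebf2 (2.32 and 8.05 CPM) and Ebf3 (3.57 and 9.89 CPM). Foxp2 had 35.0 and 20.4 CPM and Six2 95.1 and 69.2 CPM, both below 2-fold. Of 18 structural and secreted genes of otic mesenchyme, 4 were lower, among them Ptgds, the prostaglandin D synthase of the meninges, at 8.76 and 60.1 CPM, and Chst1, a keratan sulphate sulphotransferase, at 12.7 and 34.4 CPM. Of 4 tested Hox and cofactor genes Hoxa2, of the neural crest of the second pharyngeal arch, was lower at 0.715 and 6.61 CPM, and of 3 tested T-box genes Tbx2 was lower at 1.79 and 5.12 CPM. Among cells of the same clusters Hoxa2 stayed lower, at 0.385 and 3.99 CPM, while Tbx2 stood at 1.54 and 1.60 CPM. Osr1 then stood at 4.62 and 3.93 CPM and Nr2f1 at 32.9 and 34.0 CPM. Ebf3, at 3.27 and 6.11 CPM, and Ebf2 were still lower in Zic cells, but by less than 2-fold. Of 16 tested genes of meningeal fibroblasts, a cell type known for Zic expression, 2 were higher, among them Cdh1, and Aldh1a2 and Ptgds were lower, with a median log2 ratio of -0.04. Cdh1, the epithelial cadherin, stood at 10.2 and 3.11 CPM. With comparison cells weighted to the clusters of the Zic cells, Ptgds was instead higher in Zic cells, at 9.04 and 3.63 CPM. Aldh1a2 was then close, at 1.35 and 1.55 CPM, and Cdh1 still higher, at 11.0 and 4.47 CPM. The meningeal list thus had 2 genes higher and 2 lower, with a median equal to the -0.04 of all genes tested. The lower level of Aldh1a2 and Ptgds was not seen among cells of the same clusters.

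The matrix lists lay below the median of all genes (-0.04) in Zic cells. Their counts stand beside 0.262% of all genes tested at least 2-fold higher and 2.23% at least 2-fold lower. Of 24 tested collagens, Col1a1 (22.7 and 7.77 CPM) and Col8a1 (12.9 and 5.16 CPM) were higher, Col11a2, Col18a1 and Col23a1 lower, and the median log2 ratio was -0.41. The higher level of Col1a1 came from few cells. At full depth it was found in 1.50% of cells with no Zic UMI. The share was 2.34% with 2 Zic UMIs, 1.15% with 3 or 4, 0.699% with 5 to 9 and 0 with 10 or more. Of 21 laminins, fibronectin and matricellular genes, Vcan, the proteoglycan versican, was lower at 29.8 and 77.7 CPM and Spp1, osteopontin, at 3.04 and 12.2 CPM, with a median of -0.40. Of 10 tested cartilage genes only Col11a2 passed 2-fold, and the median was -0.40, with Col2a1, the main cartilage collagen, at 823 and 1109 CPM. The small leucine-rich proteoglycans went the other way in most members, with 6 of 8 above 1, among them decorin (Dcn) at 690.2 and 526 CPM, but only Epyc passed 2-fold, being lower at 2.32 and 5.97 CPM. Their median log2 ratio of 0.09 turned to -0.28 against comparison cells weighted to the clusters of the Zic cells. Spp1 was the single bone gene tested. Iron handling, the setting of Trf, differed in 1 of 9 genes, the haem oxygenase Hmox1 at 15.7 and 38.1 CPM, and the ferritin chain Fth1 had 8356 and 6582 CPM. Hmox1 stood at 13.1 and 14.5 CPM against comparison cells weighted to the clusters of the Zic cells.

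Among 13 cadherins and adhesion genes Cdh1 and Cdh10 were higher and Cdh6 lower (3.57 and 12.7 CPM), while Cdh11, the mesenchymal cadherin, had 136 and 125 CPM. Among 27 guidance genes Nrp2 was higher and the ephrin receptor Epha3 (1.25 and 4.34 CPM) and Sema3c (2.14 and 6.82 CPM) lower. The shares over all genes tested were 0.262% higher and 2.23% lower. No gene of 18 in the cell cycle list passed 2-fold, and of 9 cell cycle inhibitors Btg2 was lower, while Cdkn1c had 992 and 834 CPM.

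Proliferation was therefore compared by the share of cycling cells, with the rule's limit on Mki67 and Top2a set aside. At 4000 UMIs, 18.4% (15.5 to 21.5) of 681 Epcam-negative Col1a2 cells with at least 2 Zic UMIs had a Mki67 or Top2a UMI, and 18.8% (17.6 to 20.1) of 3830 cells with fewer. The shares lay within each other's counting intervals. At full depth, the rule's limit of 3 UMIs removed 99 of 737 Zic cells (13.4%) and 578 of 4853 other cells (11.9%).

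Levels also varied with the number of Zic UMIs, and a clear step already lay between 0 and 1, below the limit of 2. Gjb2 stood at 34.2 CPM in cells with no Zic UMI, 70.5 CPM with 1, 87.6 CPM with 2, 94.1 CPM with 3 or 4, 105 CPM with 5 to 9 and 216 CPM with 10 or more. Crym stood at 669.9, 180.4, 148, 108, 130.2 and 27.6 CPM in the same order. Cells with a single Zic UMI, which the rule placed among the comparison cells, were thus nearer to the Zic cells than to cells without any in both genes. Wif1 stood at 103, 116, 144, 148, 134 and 63.6 CPM and Trf at 44.1, 64.2, 57.3, 57.3, 43.2 and 35.9 CPM, with no steady course, and both were lowest in the 21 cells with 10 or more Zic UMIs. Ildr2 reached 91.2 CPM in these 21 cells and between 5.23 and 24.7 CPM in the others. The bins differ in depth. When cells were thinned to 4000 UMIs and grouped anew by the Zic UMIs left, Gjb2 stood at 37.9 and 90.7 CPM with 0 and 1. Crym stood at 667 and 169 CPM in the same groups. The thinned group with 1 UMI also takes in Zic cells that had more at full depth, so it cannot show a step below the limit.

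**Figure D4:**
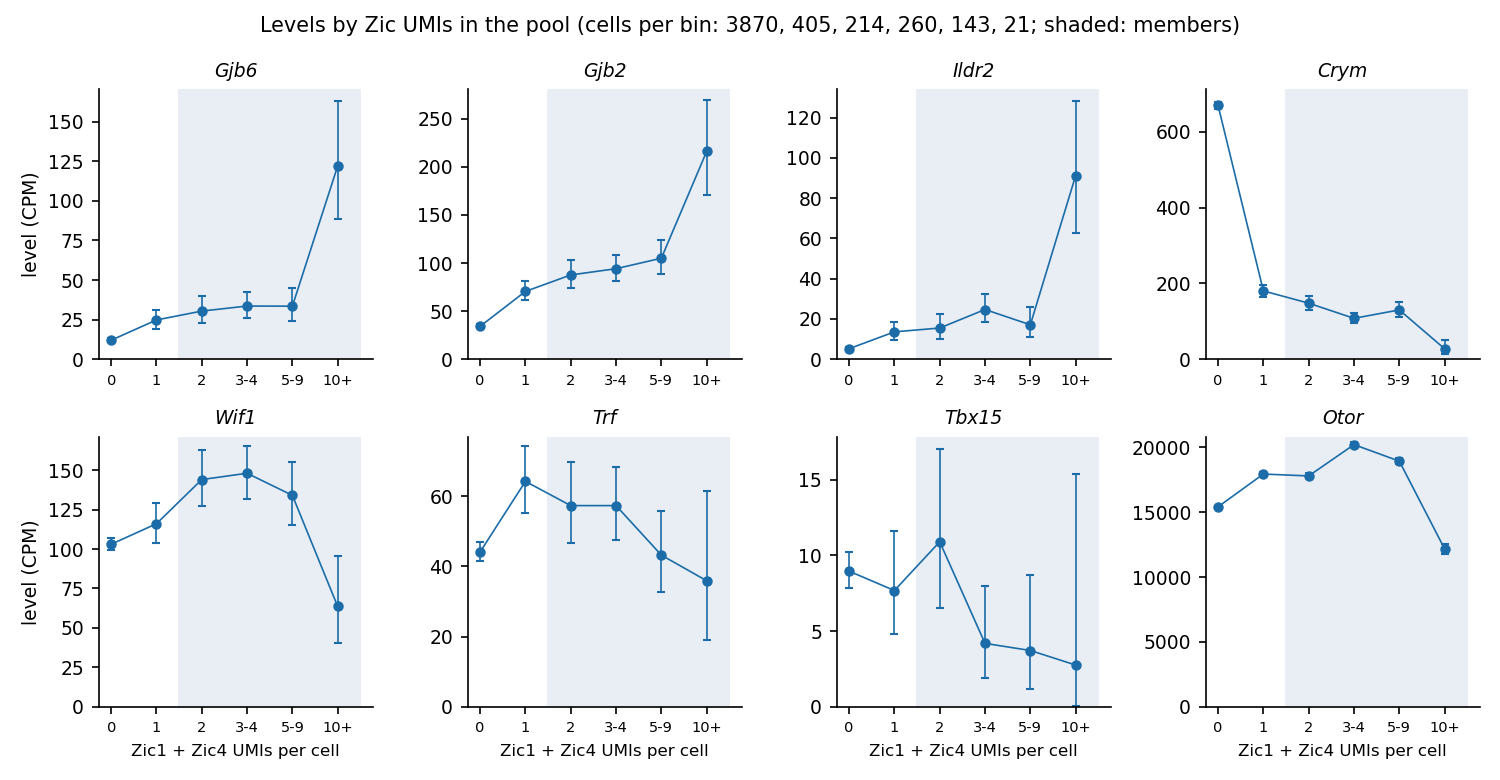
Levels (y axes, CPM, starting at 0) of 8 genes in the 4913 Epcam-negative, non-cycling Col1a2 cells grouped by their Zic1 and Zic4 UMIs (x axes), with exact 95% counting intervals and Zic cells shaded. Crym drops from 669.9 to 180.4 CPM between 0 and 1 UMI, Gjb2 climbs from 34.2 to 216 CPM, and Wif1, Trf and Tbx15 show no steady course.

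To see where Zic cells lay when neither the rule genes nor Wif1, Trf and Tbx15 were used, the 4913 cells were clustered on other variable genes. Of 16 clusters, 7 held at least 20 Zic cells each and together 591 of them (92.6%), beside 2352 comparison cells (55.0%). The highest share, 33.3% of cells (29.2 to 37.5), was in cluster 3, led by Trf, Srbd1, Mpzl2 and Prcp, with Wif1 also among its leading genes. Shares of 22.1% were found in cluster 10, led by Aspn, Sema3d and Hhip, 19.9% in cluster 5, led by St3gal1 and Tmem132c with Apod and Chst1, 18.2% in cluster 0, led by Atp1b1 and Syt1, and 16.2% in cluster 1, led by Cemip, Ogn and Rbp4 with Car3. Clusters 9 and 8, led by the cell cycle genes Cenpa and Pclaf, held 15.0% and 11.8%. By contrast the share was 1.55% in cluster 4, led by Crym, Col11a2 and Hes1, 1.85% in cluster 6, led by Fndc1 and Nkd2, 2.20% in cluster 7, led by Osr1 and Kcnk2, and 2.56% in cluster 11, led by Ednrb and Sostdc1. Zic cells thus did not form a cluster of their own but were spread over 5 mesenchymal clusters and the cycling ones, and were rare in 4 others of similar depth.

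**Figure D5:**
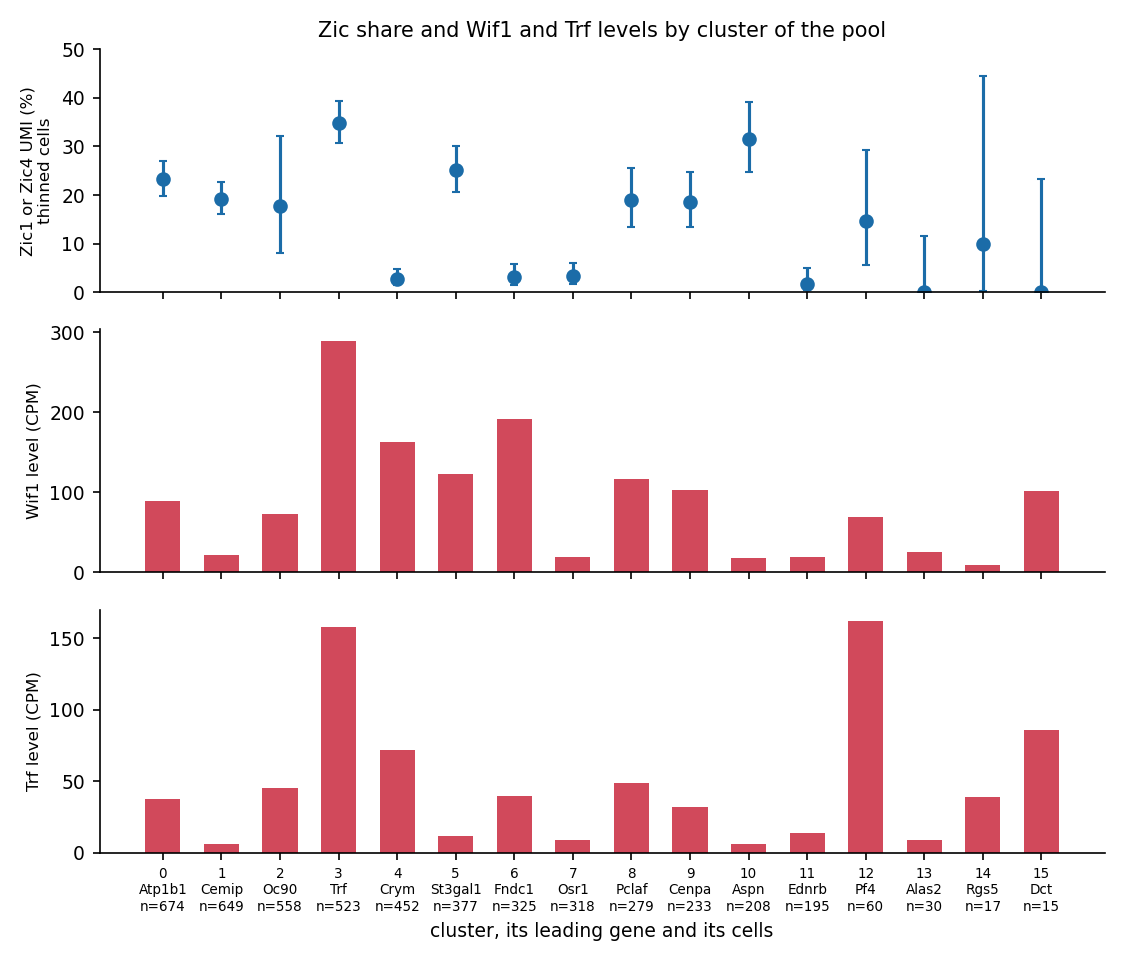
Share of cells with a Zic1 or Zic4 UMI at 4000 UMIs per cell (top, percent, exact 95% intervals) and levels of Wif1 (middle, CPM) and Trf (bottom, CPM) in the 16 clusters of Epcam-negative, non-cycling Col1a2 cells, each given with its leading gene and number of cells. Cluster 3 has the highest Zic share (34.9%) and the highest Wif1 level (289 CPM), whereas cluster 10 has a Zic share of 31.6% with 18.3 CPM of Wif1 and cluster 6 a share of 3.06% with 191 CPM.

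Wif1 and Trf were highest among the clusters with many Zic cells in cluster 3, and the ratio of Wif1 varied between clusters. Cluster 3 had 289 CPM of Wif1 and 158 CPM of Trf over all of its cells, and within it Zic cells had 246 CPM of Wif1 and comparison cells 315 CPM, and 121 and 181 CPM of Trf. In clusters 0, 1 and 8, Wif1 was instead higher in Zic cells, at 118 against 81.7 CPM, 39.0 against 17.8 CPM and 178 against 103 CPM, with intervals that do not overlap. Over all cells of the 7 clusters the ratio of Wif1 was 1.30. Weighted over the 7 clusters, the ratio of Zic cells to comparison cells of the same cluster was 0.989 for Wif1, 0.745 for Trf and 0.635 for Tbx15. The same ratio was 2.81 for Ildr2 and 2.50 for Cdh10, each higher in Zic cells in 6 of 7 clusters, 2.43 for Ppm1h and 2.07 for Gjb6 (each in 7 of 7), and 2.13 for Gjb2 (in 6 of 7). Of the 126 Ildr2 UMIs behind its ratio, 78 came from the 46 Zic cells of cluster 10. The Zic cells of clusters 0, 3 and 8 held only 3, 1 and 2. Gjb2 was highest in the Zic cells of cluster 10, at 222 CPM against 74.4 CPM in its comparison cells, and in cluster 3 stood at 43.4 against 51.0 CPM. Crym and Col23a1 were lower in Zic cells in 7 of 7 clusters, with weighted ratios of 0.261 and 0.253, and in cluster 5 Crym stood at 287 against 1184 CPM. In all, 7 of the 15 highest named genes and 8 of the 10 lowest stayed at least 2-fold from 1 among cells of the same cluster. Below 2-fold were Ptprt (1.93), Lrrn2 (1.86), Srbd1 (1.85), Nrp2 and A4galt (each 1.76), Mpzl2 (1.66), Srgn (1.59) and Cntn6 (1.26), and on the lower side Hes1 (0.520) and Irf1 (0.548). The weighted ratio of Wif1 was near 1, with Wif1 higher in Zic cells in 5 of 7 clusters and Trf in 4 of 7.

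Against the 4 groups of mesenchymal cells most like them, each set by at least 2 UMIs of its own genes in the same 4913 cells, the Zic cells overlapped in part. The Car3 and Aqp1 cells (3488) took in 88.2% of Zic cells, which made up 16.1% of that group. The Chst1 and Apod cells (1197) took in 25.4% and were 13.5% Zic cells, and the Aspn and Col12a1 cells (503) took in 14.6% and were 18.5% Zic cells. The Osr1 cells (192) took in 5 Zic cells (0.784%), or 2.60% of that group (0.851 to 5.97), below the 13.0% of the whole. These shares were taken without thinning. With cells thinned as above, a Zic1 or Zic4 UMI was found in 20.6% of Car3 and Aqp1 cells and 24.2% of Aspn and Col12a1 cells. The share was 15.0% (12.9 to 17.2) in Chst1 and Apod cells and 4.44% (1.94 to 8.57) in Osr1 cells. In the whole it was 17.4% (16.2 to 18.6). Ildr2, counted in these groups apart from Zic cells, reached 30.4 CPM (24.8 to 36.8) in Aspn and Col12a1 cells and 24.3 CPM (20.4 to 28.7) in Zic cells, which do not differ beyond counting error. Nrp2 was likewise 42.8 and 42.9 CPM in these groups. Gjb6 was 31.8 CPM (26.2 to 38.4) in Aspn and Col12a1 cells and 38.2 CPM (33.3 to 43.7) in Zic cells, with intervals that overlap. Crym, at 121 CPM in Zic cells, was lower still in Osr1 cells, at 96.4 CPM. Mpzl2, at 50.4 CPM in Zic cells, was 24.2 CPM or below in all 4 groups, but 63.8 CPM in the comparison cells of cluster 3.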

How the data were processed

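Utricular sensory epithelium of wild-type mice at E14 and P2 was profiled by 10x Genomics scRNA-seq, 1 library per age. The authors deposited unnormalized UMI counts of every gene in each called barcode, from Cell Ranger 3.1.0. GRCm39 is the build in the paper's methods, while the submitters' processing notes list mm10 beside it, and the build used was not determined. Of 31053 gene IDs, 30934 were found in GENCODE M21 (GRCm38), and coordinates and promoter windows are those of GENCODE M21 or RefSeq GRCm38.p6, not of the authors' build. No value from the authors' later Seurat 4.1.1 analysis was used.

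A barcode was kept if it had 500 or more genes and 1000 or more UMIs, of which no more than 15% were mitochondrial. UMIs were summed over the cells of each group as CPM, with exact 95% Poisson intervals for levels, exact conditional binomial intervals for ratios and exact Clopper-Pearson intervals for shares. Genes entered the comparison with at least 20 UMIs expected in Zic cells at the pooled level, and were called by a 2-fold ratio with 1 CPM added, while printed ratios are without it. With 1 library per age no p-value was computed. Shares of cells were taken after thinning each cell to 4000 UMIs without replacement. Doublets were scored with Scrublet (scanpy 1.11.5) and kept, since the rule does not remove them, and the 1074 cells with the highest scores were removed in an alternative. The 4913 cells were clustered by the Leiden method (leidenalg 0.10.2) on 2000 variable genes without the rule genes, Wif1, Trf and Tbx15, with 30 components, 15 neighbours and resolution 1. The steps were tested on simulated data.

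Named were Zic1, Zic4, Wif1, Trf, Tbx15, the 15 tested genes with the highest and 10 with the lowest ratio found in at least 10% of cells of the higher group (without unnamed models, ribosomal, mitochondrial and haemoglobin genes), and, in each gene list, members with the highest level or at least 2-fold apart. A few list members outside this (Rspo3, Foxp2, Six2, Ptch1, Gja1, Dnajb1, Socs3) were chosen after their values were seen. The cells, markers and lists were chosen with earlier results of these data known. Computations ran in Python 3.11.15, with scipy 1.17.1 for intervals, pandas 2.3.3 and numpy 2.4.6 for sums, scikit-learn 1.9.0 for components and matplotlib 3.10.9 for figures. A few items are not reported here.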

Additional observations from a re-analysis of the deposited data

Results flagged for a closer look

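The cells described here lay outside the comparison but met its limit on Zic UMIs, by which they were picked. They come from 918 cells with at least 2 UMIs of Zic1 and Zic4, of which 638 were Zic cells and 99 were left out as cycling.

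Epcam was found in 152 of them (16.6%, 14.2 to 19.1), which were 3.54% of the 4299 Epcam cells. Of these 152, 150 (98.7%) also had a Col1a2 UMI, against 32.7% of all Epcam cells, 69 (45.4%) had exactly 1 Epcam UMI, and 48 (31.6%, 24.3 to 39.6) were among the highest doublet scores, against 13.8% of all Epcam cells. At 4000 UMIs a Zic UMI was found in 6.04% (4.47 to 7.95) of cells with at least 3 Epcam UMIs and Col1a2, and in 0.186% of those without Col1a2.

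A further 29 of the 918 cells (3.16%, 2.13 to 4.51) had neither an Epcam nor a Col1a2 UMI. The 1699 cells without either transcript had a median of 1745 UMIs, against 6755 in the 4913 cells of the comparison. They were 1.71% of those 1699, against 0.0805% of epithelial cells without Col1a2, 2.58% of glial and 6.76% of endothelial cells with at least 2 Zic UMIs. At 4000 UMIs the share with a Zic UMI was 2.39% (1.15 to 4.36). Its interval overlaps those of glial cells, at 1.42% (0.870 to 2.19), and of endothelial cells, at 4.43% (1.80 to 8.92). What these cells are was not tested.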

How the results depend on the processing

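The counts of cells and genes moved with the limits set, and the direction of the named genes mostly did not. Of 25 named genes, 350 values were computed, under 12 other settings and 2 chosen after seeing the data, without the settings of the gene filter and of the added CPM. Of these 349 stayed on the same side of 1, and 321 were still at least 2-fold apart. The exception was Hes1, at 1.04 when cells with at least 2 UMIs of other cell class markers were left out, which kept 182 Zic cells and 1484 comparison cells. At least 2 glial marker UMIs, nearly all of whose level came from Fabp7, were found in 62.1% of Zic cells and 50.6% of comparison cells. Many cells were thus left out for Fabp7, and whether they belong to another class was not tested. With cells thinned to 4000 UMIs before the rule, Cdh10 fell from 2.81 to 1.44 and Ptprt from 2.84 to 1.47. A4galt rose from 2.46 to 3.46 under the same setting. The number of Zic cells was 1043 with 1 Zic UMI, 269 with 4, 391 with both genes and 327 when cells were first thinned. Against 28 genes higher and 238 lower, there were 15 higher with 4 Zic UMIs and 16 with both genes, 8 higher and 110 lower after thinning, 11 and 87 without other class markers, 12 and 104 with 5 CPM added, 6 and 75 with 100 UMIs expected, 45 and 393 with no gene filter, and 17 and 60 with comparison cells weighted to the clusters of the Zic cells. In the clusters with at least 20 Zic cells 62 genes were lower. Both cluster alternatives were chosen after seeing the data. The Wif1 ratio was 1.22 with 4 Zic UMIs, 1.20 with 5 Col1a2 UMIs, 1.88 without other class markers and 0.989 weighted. Trf gave 1.37 and 0.745 under the last pair, and Tbx15 0.352 with 4 Zic UMIs, 0.416 with both genes and 0.401 without other class markers. The share of cycling cells was 13.4% unthinned with a limit of 3 UMIs and 13.9% at 2000 UMIs, and Zic4 was found in 42.3% of Zic1 cells unthinned and 21.3% at 2000. Of 490 medians of 29 lists 43 moved by over 0.2 and 49, in 13 lists, changed sign. The small leucine-rich proteoglycans went from 0.09 to -0.32 in the clusters with at least 20 Zic cells and -0.28 weighted, and the bone list, with 1 gene tested, turned to 0.15 with 1 Zic UMI and 0.03 with no gene filter, where other genes entered. The cause of the other shifts was not tested. No paired analysis was possible because each age had 1 library and no result comes from a test.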
